A study of Rattus norvegicus with 10 samples.

Results

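The mRNAs described here belong to the cellular stress responses of the rat spinal cord: the heat shock proteins Hspb1, Hsph1, Hsp90aa1, Hspa8, Hspa1b and Dnajb1, the ER stress genes Hspa5, Xbp1 and Ddit3, and the heme oxygenase Hmox1. They are 10 genes listed by name, and a gene was taken as measured when an mRNA accession on the array was paired with its symbol by the RefSeq gene table. This held for 8 of the 10 genes, among 13345 mRNA accessions and 20256 RNAs tested in all. Hspa1b and Dnajb1 had no accession matched through that table and have no value here.

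The study asked which RNAs of the spinal cord differ between morphine tolerant (MT) rats and rats given normal saline (NS). All animals were adult male Sprague Dawley rats of 240 to 260 g, with no age in weeks given in the sources used here. The 5 MT rats, numbered 1 to 5, received 10 μg of morphine in 10 μl intrathecally 2 times a day for 7 days. The 5 NS rats, numbered 6 to 10, received 10 μl of saline on the same schedule. The lumbar enlargement, the part of the cord that serves the hind limbs, was taken under pentobarbital after a last morning injection of morphine or saline. The MT tissue therefore carries both the repeated dosing and the most recent dose. The RNA of each rat was hybridized to 1 one-colour array, and no RNA was pooled.

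Heat shock proteins are chaperones that hold or refold damaged proteins. Their genes are switched on by the heat shock factor HSF1, which binds alternating GAA and TTC units in promoters. Unfolded protein inside the endoplasmic reticulum (ER) starts a separate program through the sensors IRE1, PERK and ATF6, which raises ER chaperones such as Hspa5 (BiP), activates the transcription factor Xbp1 by splicing and, when stress persists, induces the pro-apoptotic factor Ddit3 (CHOP). Hmox1, which breaks down heme, is induced by oxidative stress through the factor NRF2.

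The promoters below show where the letters known for each program lie in these genes. Their part in the variation of these mRNAs between rats was not tested. RefSeq (GRCr8) promoters were found for 6 of the 8 measured genes, and each line gives the 250 bases before the transcription start, with the matches in capitals. In Hspb1, Hsph1 and Hspa8 the capitals mark paired heat shock units, spelled GAANNTTC or TTCNNGAA, and in Hspa5 and Xbp1 the ER stress response element, spelled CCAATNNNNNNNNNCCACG.
Hspb1 (chr12:26432302-26432551, minus strand): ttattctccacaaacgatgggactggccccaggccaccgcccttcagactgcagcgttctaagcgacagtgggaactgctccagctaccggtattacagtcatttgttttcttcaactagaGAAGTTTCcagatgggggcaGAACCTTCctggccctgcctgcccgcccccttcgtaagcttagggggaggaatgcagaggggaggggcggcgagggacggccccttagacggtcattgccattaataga
Hsph1 (chr12:10427118-10427367, plus strand): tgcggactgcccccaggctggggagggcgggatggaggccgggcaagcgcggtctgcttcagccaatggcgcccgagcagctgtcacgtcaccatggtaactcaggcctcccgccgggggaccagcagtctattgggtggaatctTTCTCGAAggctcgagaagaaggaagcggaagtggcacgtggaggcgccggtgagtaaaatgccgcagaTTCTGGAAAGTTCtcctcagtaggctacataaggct
Hspa8 (chr8:50080264-50080513, plus strand): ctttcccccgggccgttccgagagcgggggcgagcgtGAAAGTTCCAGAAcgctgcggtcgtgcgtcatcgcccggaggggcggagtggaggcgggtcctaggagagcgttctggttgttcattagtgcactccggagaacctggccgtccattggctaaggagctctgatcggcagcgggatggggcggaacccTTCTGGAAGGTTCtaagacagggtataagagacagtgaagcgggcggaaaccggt
Hspa5 (chr3:38452766-38453015, plus strand): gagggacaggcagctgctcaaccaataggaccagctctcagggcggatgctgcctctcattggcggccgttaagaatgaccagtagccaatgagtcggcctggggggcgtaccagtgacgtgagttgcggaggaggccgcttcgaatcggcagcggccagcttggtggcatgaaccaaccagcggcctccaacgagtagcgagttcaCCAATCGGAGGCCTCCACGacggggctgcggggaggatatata
Xbp1 (chr14:84604373-84604622, plus strand): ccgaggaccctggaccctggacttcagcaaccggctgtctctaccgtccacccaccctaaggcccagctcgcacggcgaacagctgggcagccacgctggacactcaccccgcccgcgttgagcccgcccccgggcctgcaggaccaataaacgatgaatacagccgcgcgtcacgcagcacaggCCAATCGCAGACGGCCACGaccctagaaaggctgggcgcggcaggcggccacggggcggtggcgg
Both strands were searched over 300 bases, from 250 before to 50 after the start, and a match is a description of the letters only. Paired heat shock units occurred in 15.9% of the 33469 promoters of the table, 5305 in number. Hspb1 held 2 of them, at 129 to 122 and 109 to 102 bases before the start. Hsph1 held 3 and Hspa8 held 4, some of which overlap to form triple units, spelled GAANNTTCNNGAA or TTCNNGAANNTTC, which occurred in 0.798% of promoters (267). The triple unit of Hsph1 lay at 36 to 24 bases before the start, and those of Hspa8 lay at 213 to 201 and at 55 to 43 bases. The ER stress response element was present in 0.0657% of promoters (22), among them Hspa5 at 43 to 25 bases and Xbp1 at 65 to 47 bases before the start. The promoter of Ddit3, searched in the same way and not printed, held no match to these letters.

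The arrays differed in signal by slide, and slide and group overlap in part. Arrays that share a scan time were taken as 1 slide: slide 1 held MT rats 1, 3, 4 and 5, slide 2 held MT rat 2 and NS rats 6, 7 and 10, and slide 3 held NS rats 8 and 9. The share of spots well above background was 81.1% to 83.9% for MT rats and 58.6% to 79.6% for NS rats, the lowest values (58.6% and 63.8%) being those of slide 3. All array markers of neurons (6 of 6), astrocytes (5 of 5) and oligodendrocytes (6 of 6) were detected on every array. Each measured stress gene had 1 spot, which was well above background and unsaturated on 10 of 10 arrays. Values below are quantile-normalized log2 intensities, on which a difference of 1 is a doubling, and the level of one gene cannot be compared with that of another on this scale. The number of arrays limits the precision of every value, and in bulk tissue fewer cells of a type and less RNA per cell cannot be told apart.

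No measured stress mRNA differed between MT and NS rats beyond the spread between arrays, 1 per rat, in limma. After adjustment, 0 of 8 passed an adjusted p of 0.05 in limma, where 0.197% of all RNAs did (40 of 20256). None met the study's criteria, taken here as more than a 1.5-fold change at an unadjusted P under 0.05, where 2.73% of all RNAs did. None passed an unadjusted P of 0.05 in limma, which 16.4% of all RNAs did, and none had every MT rat on one side of every NS rat, which held for 5.63% of all RNAs. The mean was higher in the MT group for 7 of the 8 genes, Ddit3 being the exception, and 49.8% of all RNAs were higher. With arrays scaled by their 75th percentile, the same count was 7 of 8 and 60.7% of all RNAs were higher. The median log2 fold change of the 8 genes was 0.13, against -0.00138 over all RNAs and -0.016 over all mRNAs. For 6 of the 8 genes the 95% interval of the difference lay within a 1.5-fold change in either direction, and those of Hsph1 and Hspa8 reached beyond it on the higher side.

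**Figure D1:**
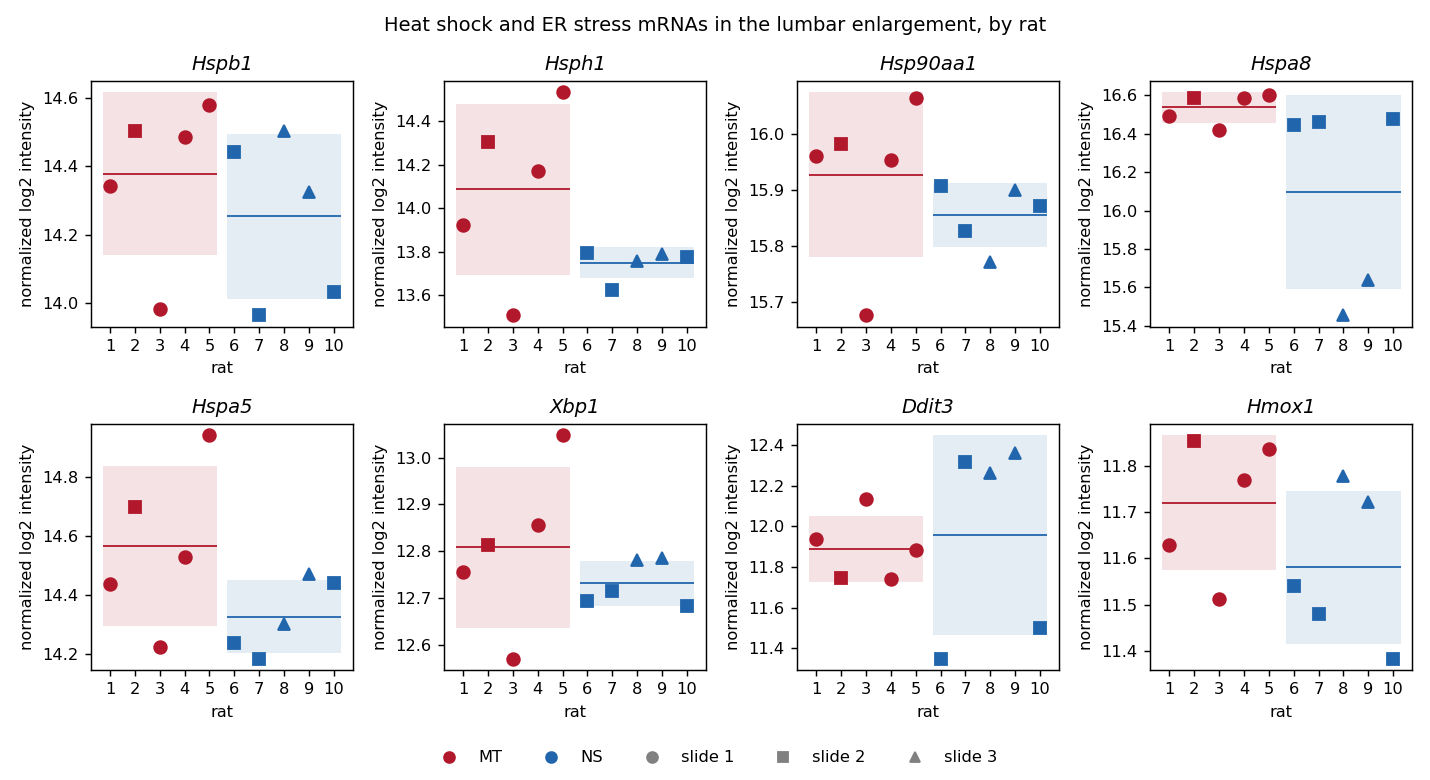
Normalized log2 intensity (y axis, one scale per gene) of the 8 measured stress mRNAs in each rat (x axis), MT rats in red and NS rats in blue, with a marker shape for each slide, lines at the group means and shaded bands of 1 SD. Rat 3 is the lowest MT rat in 7 of the 8 panels, and the NS rats of slide 3 (rats 8 and 9) stand apart for Hspa8.

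Among the heat shock genes, Hsph1 (NM_001011901), the HSP110 chaperone that resets HSP70 by nucleotide exchange, was high in some MT rats and not in others. Its log2 intensity in MT rats 1 to 5 was 13.92, 14.30, 13.51, 14.17 and 14.53. In NS rats 6 to 10 it was 13.79, 13.63, 13.76, 13.79 and 13.78. The 4 MT rats other than rat 3 were above every NS rat, whereas rat 3 was below all of them, and the NS rats were tightly grouped. The group means were 14.09 ± 0.39 and 13.75 ± 0.071 (SD, n = 5 each). The difference of 0.34 (SE 0.17, 95% interval -0.035 to 0.71) had an adjusted p of 0.346 in limma, and the exact two-sided permutation test over all assignments of 5 and 5 rats gave p = 0.0952. On slide 2, which holds both groups, MT rat 2 exceeded the mean of the 3 NS rats by 0.57.

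The SD of Hsph1 was 5.58 times as large among MT rats as among NS rats, and 0.736% of all RNAs had a ratio at least that large. The SD was also larger in the MT group for Xbp1 (ratio 3.57), Hsp90aa1 (2.60) and Hspa5 (2.17), so for 4 of the 8 genes, against 35.7% of all RNAs, whose median ratio was 0.738. These ratios are descriptions of 5 rats a group and carry no test. Which MT rat was left out moved these differences both ways. Without rat 3 they were 0.48 for Hsph1, 0.13 for Hsp90aa1, 0.32 for Hspa5 and 0.14 for Xbp1, and without rat 5 they were 0.23, 0.038, 0.15 and 0.017. None passed the adjusted threshold in limma in either case.

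Hspa8 (NM_024351), the constitutive HSC70 that most cells hold in large amounts, showed the largest difference of means of the 8, and this difference rested on the arrays of slide 3. It measured 16.49, 16.59, 16.42, 16.59 and 16.60 in MT rats 1 to 5. It measured 16.44, 16.46, 15.45, 15.64 and 16.48 in NS rats 6 to 10. NS rats 8 and 9 were low. MT rats 1, 2, 4 and 5 were above every NS rat, by little in the case of NS rats 6, 7 and 10, and MT rat 3 was below those 3. The difference between groups was 0.44 (SE 0.21, 95% interval -0.028 to 0.91, adjusted p = 0.330 in limma), with p = 0.0476 in the exact two-sided permutation test, unadjusted and the only one of the 8 below 0.05. The NS arrays of slide 3 were 0.91 lower than those of slide 2, and without slide 3 the difference between groups was 0.076. The exact permutation p was 0.161 without slide 3, 0.135 to 0.206 without any one MT rat and 0.0238 to 0.0476 without any one NS rat, with a difference of 0.28 without NS rat 8. Before normalization the spot read 30206 and 26488 on the arrays of slide 3 and 99269 to 129424 on the 8 other arrays. The arrays of slide 3 were dimmer as a whole, with a median spot intensity of 42.1 and 29.8, against 74.4 to 101.4 on the others. After normalization, the slide 3 minus slide 2 difference among NS rats ran from -0.032 (Hsp90aa1) to 0.59 (Ddit3) for the other measured genes. Slide 3 held only NS rats 8 and 9, so slide and rat cannot be told apart there, and the cause was not tested. On slide 2 alone, MT rat 2 was 0.13 above the mean of the NS rats.

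Hsp90aa1 (NM_175761), the inducible cytosolic HSP90 that matures kinases and steroid receptors, varied little after quantile normalization. It read 15.96, 15.98, 15.68, 15.95 and 16.06 in MT rats 1 to 5, and 15.91, 15.83, 15.77, 15.90 and 15.87 in NS rats 6 to 10. Again 4 MT rats were above every NS rat and rat 3 was below all of them. At least 3 MT rats were above every NS rat for 5 of the 8 measured genes, and for 12.4% of all RNAs. Several of these genes varied together, so this count carries no test. The difference was 0.072 (SE 0.080, 95% interval -0.11 to 0.25, adjusted p = 0.677 in limma), an interval that lies within a 1.5-fold change in either direction. With arrays scaled by their 75th percentile it was larger, at 0.18 (adjusted p = 0.414 in limma).

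Hspb1 (NM_031970), the small heat shock protein HSP27 that is abundant in motor and sensory neurons, overlapped between the groups. The MT rats 1 to 5 read 14.34, 14.50, 13.98, 14.48 and 14.58. The NS rats 6 to 10 read 14.44, 13.96, 14.50, 14.32 and 14.03. Low values occurred in both groups, in MT rat 3 and in NS rats 7 and 10. The difference was 0.13 (SE 0.14, 95% interval -0.20 to 0.45, adjusted p = 0.688 in limma). On slide 2 the MT rat was 0.36 above the NS mean, a larger difference than over all rats.

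Hspb1 varied from rat to rat with the summed dorsal root ganglion and motor neuron markers. Each sum adds linear intensities, so its brightest genes weigh most. The summed intensity of the dorsal root ganglion markers Prph, Scn10a, Calca and Trpv1, all 4 on the array and 3 detected on every array, ranged from 24932 to 50283 in MT rats and from 23765 to 40889 in NS rats. Over the 10 arrays the log2 level of Hspb1 correlated with it at r = 0.93, that of Hmox1 at 0.77, Hsph1 at 0.75, Hsp90aa1 at 0.66 and Xbp1 at 0.65. Motor neuron markers, 3 of 5 on the array, ranged from 7768 to 14375 in MT rats and from 7525 to 12168 in NS rats, and correlated with Hspb1 at r = 0.87 and with Hsph1 and Hmox1 at r = 0.72. Both sums were lowest in MT rat 3 within the MT group and low in NS rats 7 and 10. They moved together and do not tell sensory from motor neurons apart. Their part in the values of these genes was not tested. Skeletal muscle markers, 3 of 4 on the array, ranged from 1242 to 1558 in MT rats and from 850.3 to 1326 in NS rats, were lowest on slide 3 and correlated with Hspa8 at r = 0.97.

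The marker sums of other cell types also correlated with some of the stress genes. The microglial markers, 6 of 6 on the array and all detected, summed to 47828 to 61251 in MT rats and 58268 to 79554 in NS rats, and this sum correlated with Hspa8 at r = -0.77, with Hsph1 at r = -0.70 and with Ddit3 at r = 0.65. The perivascular macrophage markers, whose defining gene Cd163 was detected on no array, summed to 2337 to 4530 and 2370 to 5522, with r = -0.81 for Hspa5. The endothelial markers summed to 11086 to 12872 in MT rats and 10579 to 14909 in NS rats, with r = -0.89 for Hspa8 and 0.76 for Ddit3. The groups also overlapped for the sums of neuron (221111 to 256219 in MT and 226765 to 267369 in NS rats), astrocyte (172733 to 193149 and 177026 to 206703) and oligodendrocyte markers (415054 to 460533 and 380892 to 489623), the last of which correlated with Hspa8 at r = 0.74. They overlapped as well for neutrophil (3112 to 4772 and 2693 to 5712), erythrocyte (7723 to 20491 and 10121 to 17363) and meningeal fibroblast markers (8054 to 8690 and 3129 to 10880). The part of these cell types in the stress gene values was not tested. NS rats 8 and 9 of slide 3, where Hspa8 was lowest, had the highest endothelial sums (14909 and 14693). They also had the lowest oligodendrocyte sums (380892 and 411631). The marker correlations were not computed without slide 3. All these correlations are over 10 arrays that share slides and are descriptions only.

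**Figure D2:**
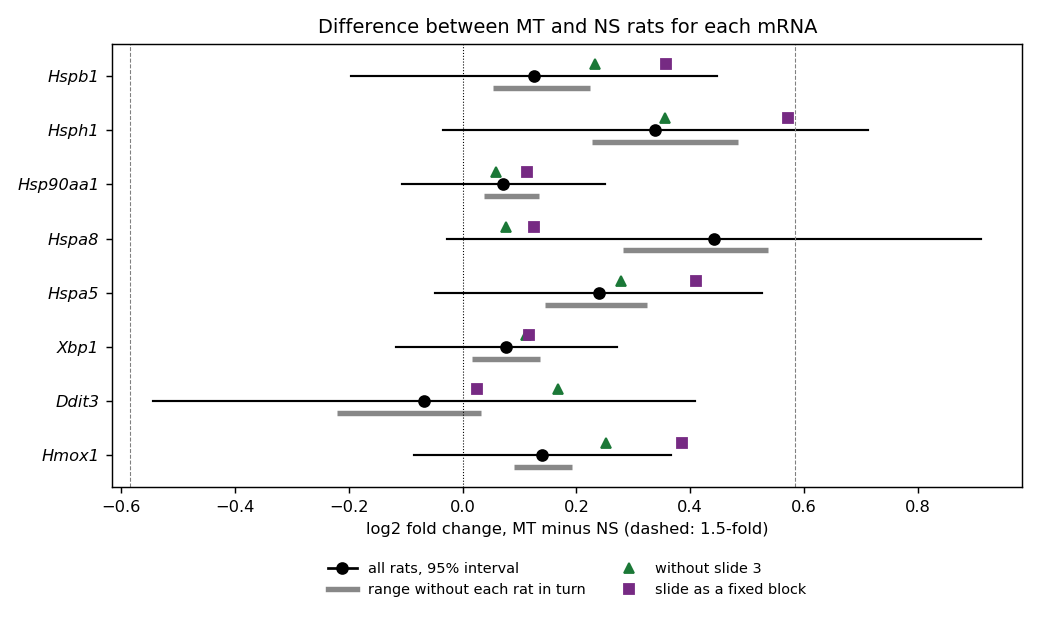
Log2 fold change (x axis, MT minus NS) of each measured stress mRNA (y axis), with the estimate over all rats and its 95% interval (black), the range when each rat is left out in turn (grey bar), the value without slide 3 (green) and the value with slide as a fixed block (purple). Every interval includes 0, Hspa8 moves from 0.44 to 0.076 without slide 3, and Ddit3 changes sign.

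Among the ER stress genes, Hspa5 (NM_013083), the ER chaperone BiP, followed the pattern of Hsph1. It read 14.44, 14.70, 14.22, 14.53 and 14.94 in MT rats 1 to 5, and 14.24, 14.18, 14.30, 14.47 and 14.44 in NS rats 6 to 10. MT rats 2, 4 and 5 were above every NS rat, and MT rats 1 and 3 lay within the NS range. The difference was 0.24 (SE 0.13, 95% interval -0.049 to 0.53, adjusted p = 0.385 in limma), and 0.41 on slide 2.

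Xbp1 (NM_001004210), the transcription factor of the IRE1 branch, read 12.76, 12.81, 12.57, 12.86 and 13.05 in MT rats 1 to 5. It read 12.69, 12.71, 12.78, 12.78 and 12.68 in NS rats 6 to 10. MT rats 2, 4 and 5 were above every NS rat and MT rat 3 below all of them. The difference was 0.077 (SE 0.087, 95% interval -0.12 to 0.27, adjusted p = 0.682 in limma). It was 0.017 without MT rat 5 and 0.0017 with normexp background correction. The single spot gives the total mRNA as the array measures it and was not used to tell spliced from unspliced Xbp1.

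Ddit3 (NM_024134), the PERK branch factor CHOP, had the widest spread of the ER stress genes, and most of it was among saline rats. The MT rats 1 to 5 read 11.94, 11.75, 12.14, 11.74 and 11.88. The NS rats 6 to 10 read 11.35, 12.32, 12.26, 12.36 and 11.50. NS rats 7, 8 and 9 were above every MT rat and NS rats 6 and 10 below every one of them, so that the MT rats lay between them. The difference was -0.068 (SE 0.21, 95% interval -0.54 to 0.41, adjusted p = 0.895 in limma). Its direction was not stable, with 0.17 without slide 3 and 0.025 on slide 2. In rat 3, where most of the other genes were at their lowest in the MT group, Ddit3 was at its highest.

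Hmox1 (NM_012580), which splits heme into biliverdin, iron and carbon monoxide, read 11.63, 11.85, 11.51, 11.77 and 11.84 in MT rats 1 to 5. It read 11.54, 11.48, 11.78, 11.72 and 11.38 in NS rats 6 to 10. The groups overlapped, and the NS rats of slide 3 were the highest NS rats. The difference was 0.14 (SE 0.10, 95% interval -0.086 to 0.37, adjusted p = 0.516 in limma). It was 0.39 on slide 2, where MT rat 2 was above all 3 NS rats, and 0.25 without slide 3. The unadjusted P in limma was 0.198 over all rats, 0.0220 with slide as a fixed block and 0.0302 without slide 3, and the adjusted p in these last fits was 1.00 and 0.237, so the adjusted call did not change. As given above, Hmox1 varied with the summed dorsal root ganglion and motor neuron markers (r = 0.77 and 0.72). Its correlation with the sum of the general neuron markers was weak (r = 0.26).

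The same MT rats lay at the ends of the range for most of the 8 genes, while the lowest NS rat differed between genes. Rat 3 was the lowest MT rat in 7 of them, which held for 34.7% of all RNAs, and rat 5 was the highest MT rat in 6, which held for 20.4%. The lowest NS rat was rat 7 for 3 genes, rat 8 for 2, rat 10 for 2 and rat 6 for 1. Within the NS rats some pairs did vary together, as Xbp1 and Hmox1 (r = 0.94, against 0.85 in MT rats). Others did so weakly, as Hsph1 and Xbp1 (0.13, against 0.96), or ran opposite, as Hspa8 and Xbp1 (-0.96, against 0.89). Among the 6 genes other than Hspa8 and Ddit3, a set chosen after the values were seen, the 15 pairwise correlations over 10 arrays ranged from 0.52 to 0.94 (median 0.76). With slide means subtracted they ranged from 0.64 to 0.94, and with group means subtracted from 0.44 to 0.91. Without the 2 rats farthest from the median of the first gene of each pair they ranged from 0.30 (Hsp90aa1 and Hmox1) to 0.90 (Xbp1 and Hmox1), so part of the pairs rest on those rats. The pair with the highest value was Hsph1 and Hspa5, with Pearson r = 0.94 and Spearman rho = 0.85. That pair kept r = 0.95 without slide 3 and r = 0.79 without the 2 rats farthest from the median of Hsph1. Hspa8 correlated with the 6 genes at -0.19 to 0.40, and at 0.50 to 0.82 once slide means were subtracted. Ddit3 correlated with the 7 other genes at -0.59 to 0.17, and at -0.58 to -0.13 with slide means subtracted. The arrays share slides and normalization, so these correlations are given without a test.

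**Figure D3:**
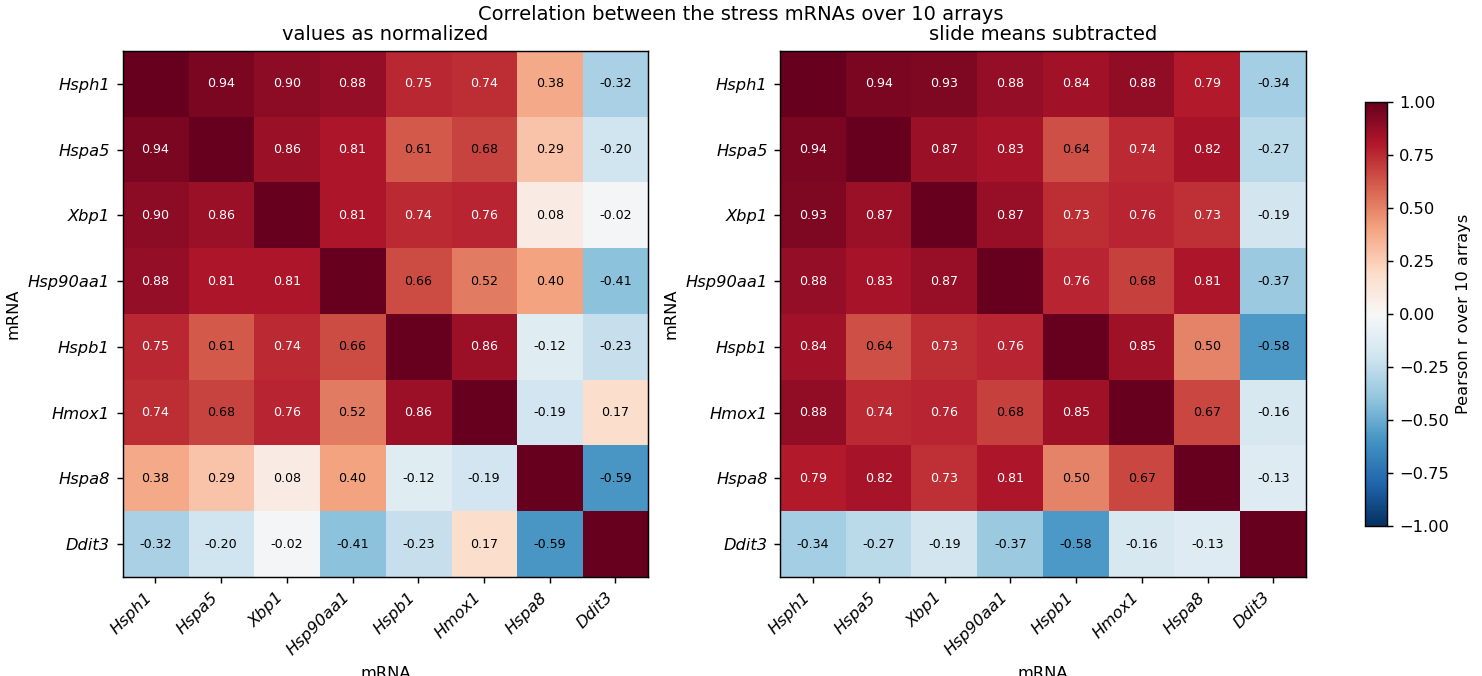
Pearson r between the log2 intensities of each pair of the 8 measured stress mRNAs over 10 arrays (colour from -1 to 1, value printed in each cell), with values as normalized on the left and with slide means subtracted on the right. The 6 genes from Hsph1 to Hmox1 form a block of positive values, Hspa8 joins it once slide means are subtracted, and Ddit3 stays apart.

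The mRNA most like Hsph1, among 12104 named genes, was Dnaja1, a J-domain cochaperone of HSP70, with r = 0.98 over 10 arrays. Lrrc24 and Tnfrsf25 followed at r = 0.96 each. Further down the order, chosen after the values were seen, were Serpinh1, the collagen chaperone HSP47 (sixth, r = 0.96), and Bag3, the HSP70 cochaperone (r = 0.94). For comparison, 4.59% of the named genes correlated with Hsph1 above 0.7. Creld2, a gene of the unfolded protein response, was the second gene in the order for Hspa5, with r = 0.97, and was likewise chosen after the values were seen.

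Hspb1 was most like Fxyd7 (r = 0.97), Jun (0.97) and Syt4 (0.96). Fxyd7 regulates the sodium pump, Jun is part of the AP-1 transcription factor, and Syt4 is a vesicle protein. Hsp90aa1 was most like Btbd6 (r = 0.94), Mmp17 (0.92) and Noxa1 (0.91). Further down its order, chosen after the values were seen, came genes also near Hsph1. They were Bag3 (r = 0.89, rank 9), Hsph1 itself (0.88, rank 19), Bag2 (0.88, rank 22), Dnaja1 (0.87, rank 24) and Serpinh1 (0.86, rank 27). For comparison, 3.61% of the named genes correlated with Hsp90aa1 above 0.7. Hspa8 was most like C4h3orf20 (r = 0.99), Spem2 (0.99) and the olfactory receptor Or13a1 (0.99), and 11.5% of named genes correlated with it above 0.7, which is more than for any other of the 8 genes. Hspa8 was 0.91 lower in the NS rats of slide 3 than in those of slide 2. These correlations include slide 3 and were not computed without it.

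**Figure D4:**
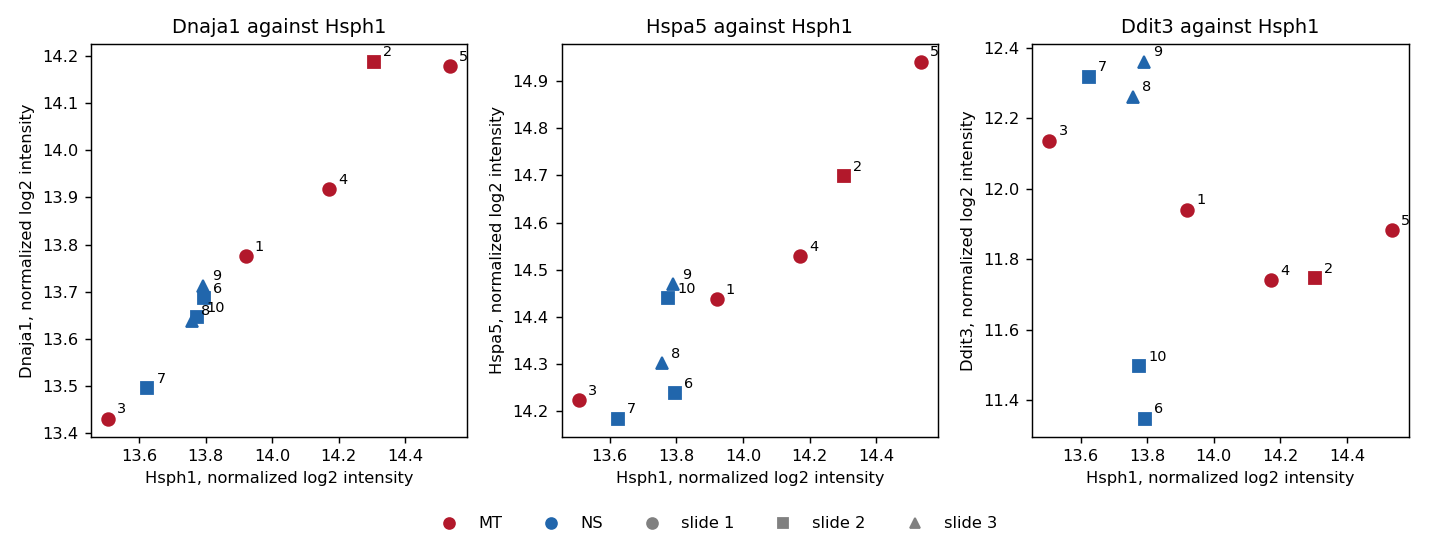
Normalized log2 intensity of Dnaja1, Hspa5 and Ddit3 (y axes) against Hsph1 (x axis), with 1 numbered point per rat, red for MT and blue for NS, and a marker shape for each slide. Dnaja1 and Hspa5 are higher in the rats with more Hsph1, and Ddit3 splits the NS rats into rats 7, 8 and 9 above and rats 6 and 10 below.

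Of 54 further cytosolic and mitochondrial chaperones, cochaperones and heat shock factors, 45 were tested, and the mean was higher in MT rats for 33 of them and lower for 12 (73.3% higher, against 49.8% of all RNAs), with a median log2 fold change of 0.067. None passed the adjusted threshold, 5 had an unadjusted P below 0.05 in limma with a higher mean and 1 with a lower mean, together 13.3% against 16.4% of all RNAs. Dnaja4, an HSP40 cochaperone, was the only one past the study's criteria, 2.22% of the list against 2.73% of all RNAs. It read 12.36, 12.21, 12.57, 12.30 and 12.36 in MT rats 1 to 5, and 11.88, 11.96, 11.11, 11.28 and 12.26 in NS rats 6 to 10. NS rats 8 and 9 of slide 3 were the lowest, and the groups overlapped through NS rat 10. Its difference was 0.66 (SE 0.21, adjusted p = 0.181 in limma), and it was 0.33 without slide 3 and 0.18 on slide 2. It no longer met the study's criteria in those fits, with slide as a random block (0.48), or without NS rat 8 (0.51) or NS rat 9 (0.56). Dnajb4, another HSP40 cochaperone and chosen after its values were seen, was the one gene of the list whose groups did not overlap, at 9.79 to 10.42 in MT rats and 9.51 to 9.76 in NS rats (difference 0.42, adjusted p = 0.158 in limma), which is 2.22% of the list against 5.63% of all RNAs.

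The genes of the unfolded protein response were about as often higher as lower. Of 49 further genes, 39 were tested, with 19 means higher and 20 lower among MT rats and a median log2 fold change of -0.00424. None passed the adjusted threshold, 4 had an unadjusted P below 0.05 in limma with a higher mean and 2 with a lower mean, together 15.4% against 16.4% of all RNAs. Atf3, a stress-induced transcription factor that also marks injured sensory neurons, was the only one past the study's criteria, 2.56% of the list against 2.73% of all RNAs. It read 9.99, 10.20, 10.00, 10.07 and 10.47 in MT rats 1 to 5, and 9.58, 9.61, 9.76, 9.46 and 8.61 in NS rats 6 to 10. Every MT rat was above every NS rat, and NS rat 10 was the lowest. The difference was 0.74 (SE 0.21, adjusted p = 0.151 in limma), and 0.54 without NS rat 10, which is under 1.5-fold. The groups also did not overlap for Cebpb, a bZIP factor of inflammation and stress that was chosen after its values were seen, at 13.77 to 13.98 in MT rats and 12.69 to 13.69 in NS rats (difference 0.55, adjusted p = 0.173 in limma). These 2 genes are 5.13% of the list, against 5.63% of all RNAs.

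The NRF2 targets around Hmox1 included the one RNA of the 3 lists that passed the adjusted threshold. Of 30 further genes of this program and of heme and iron handling, 27 were tested, with 14 means higher and 13 lower among MT rats and a median log2 fold change of 0.012. Slc7a11, the cystine transporter that supplies glutathione synthesis, was lower in the MT group. It read 10.32, 10.70, 10.21, 10.40 and 10.72 in MT rats 1 to 5. It read 11.43, 11.15, 11.32, 11.24 and 11.22 in NS rats 6 to 10. Every MT rat was below every NS rat, at 10.21 to 10.72 against 11.15 to 11.43. The SD was larger among MT rats (0.23) than among NS rats (0.10). Its log2 fold change was -0.80 (SE 0.11, adjusted p = 0.0353 in limma), and on slide 2 it was -0.57. The adjusted p ranged from 0.0160 to 1.00 over the alternatives, and the call was lost with slide as a fixed block (1.00) or a random block (0.322), without slide 3 (0.145) and with no filter on dim probes (0.0559). The call was also lost without MT rat 1, 3, 4 or 5 and without NS rat 6, 7, 8 or 9, with adjusted p of 0.0557 to 0.163 in limma.

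Gpx2, a selenium-dependent glutathione peroxidase, was the other gene of that list past the study's criteria. It read 8.15, 8.49, 8.48, 7.94 and 9.08 in MT rats 1 to 5, and 9.23, 9.05, 9.16, 9.10 and 9.07 in NS rats 6 to 10. MT rat 5 lay within the NS range and the 4 other MT rats below it. The difference was -0.69 (SE 0.18, adjusted p = 0.141 in limma). It no longer met those criteria with slide as a fixed block (unadjusted P = 0.127 in limma) or without MT rat 4 (-0.57). The iron exporter Slc40a1, chosen after its values were seen, was the other gene of the list whose groups did not overlap, at 8.67 to 9.39 in MT rats and 9.40 to 9.78 in NS rats (difference -0.47, adjusted p = 0.162 in limma). In the same list 3 genes had an unadjusted P below 0.05 in limma with a higher mean and 3 with a lower mean, together 22.2% against 16.4% of all RNAs. The 2 genes past the study's criteria and the 2 without overlap are each 7.41% of the list, against 2.73% and 5.63% of all RNAs.

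**Figure D5:**
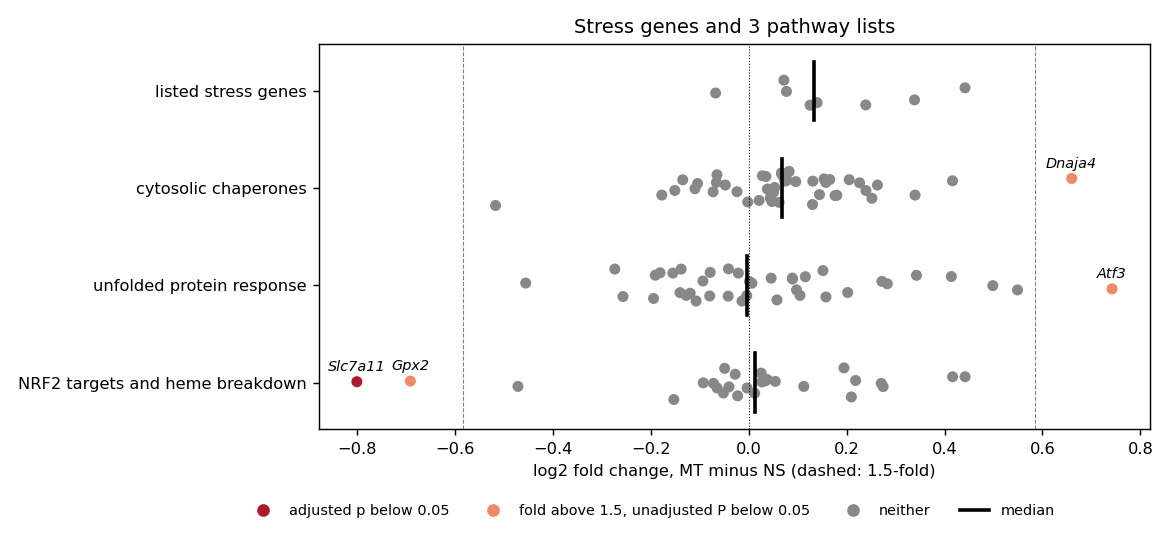
Log2 fold change (x axis, MT minus NS) of the 8 measured stress mRNAs and of the genes of 3 related lists (rows on the y axis, spread vertically only for visibility), with a bar at each median and dashed lines at a 1.5-fold change. Slc7a11 is the only gene past the adjusted threshold, and Dnaja4, Atf3 and Gpx2 are the others past the study's criteria.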

How the data were processed

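Total RNA of the lumbar enlargement of 5 MT and 5 NS rats was measured on rat lncRNA arrays, 1 array per rat, with Cy3 label and random priming. Spots were extracted in Agilent Feature Extraction (version 11.0.1.1, per the submitters' processing notes). The authors deposited linear spot intensities after background subtraction, with flags of 0 or 1 for outlier, saturated and well-above-background spots. They also deposited log2 values that the authors had quantile normalized between arrays in GeneSpring, and 24484 of these entries matched a probe.

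Here, the 42136 spots that were not controls were floored at an intensity of 1, taken to log2 and quantile normalized in limma 3.58.1 (R 4.3.3). Spots marked as outliers were dropped, and spots were averaged per probe. A probe passed when over 50% of its spots exceeded background clearly on 5 or more arrays, and probes were then averaged per accession. Quantile normalization forces equal distributions on all arrays, so a shift shared by most RNAs cannot be seen. Accessions were named through the RefSeq gene table of GRCr8, which is not the build of the array design. The only coordinates given are those of the promoters, on GRCr8. For the 8 measured genes, values differed from the deposited log2 values by at most 0.0557.

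MT and NS were compared with limma (linear models, empirical Bayes), with Benjamini-Hochberg adjustment over 20256 RNAs. For single genes the rats were also permuted between groups in an exact two-sided test, with a smallest possible p of 0.00794. Nothing in the labels pairs the animals. Without a block for slide, the p-values measure the spread between arrays, which holds differences between rats and between slides together. The consensus correlation of arrays of a slide was 0.46 in the fit with slide as a random block. Only the limma and Student fits were tested on simulated data, made of independent normal noise with a shift added to some RNAs. That simulation held no slide effect, and it did not cover normalization, filtering or the permutation test. Plots used matplotlib 3.10.9 under Python 3.11.15. The members and the lists of related genes and cell markers were chosen with earlier results of these data known. The genes named were all members, of each list up to 4 genes with the smallest P among those past the study's criteria, and the 3 genes most like each heat shock gene. Others are said to have been chosen after their values were seen.

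The alternatives were the 75th percentile in place of quantile normalization, normexp (offset 50, on the median spot and background signals), the deposited table, no filter, a filter on all 10 arrays, outlier spots kept, the Student test named in the methods, slide as a fixed or random block, values within slide 2, and leaving out slide 3 or each rat in turn.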

Additional observations from a re-analysis of the deposited data

Results flagged for a closer look

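Among 16 groups of 5 rats examined, 2 for each of the 8 genes, the most extreme rat stood apart from its group in 2 by Dixon's test, for which chance gives about 1 in 20 groups. Hsph1 in NS rat 7 was at 13.63, below the next NS rat at 13.76. Hsp90aa1 in MT rat 3 was at 15.68, below the next MT rat at 15.95.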

How the results depend on the processing

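No paired analysis was possible because the groups share no rat numbers. Under the alternatives, 162 of 168 values of the 8 genes kept their direction and their side of the adjusted threshold (within slide 2, the direction alone), and none became a call. The 6 others were Ddit3, which had a log2 fold change of 0.025 with slide as a fixed block and within slide 2, 0.17 without slide 3, and 0.022, 0.00828 and 0.033 without NS rats 7, 8 and 9 (range -0.22 to 0.033 when a rat was left out). No alternative took a member past the adjusted threshold or the study's criteria. The median of the members was 0.083 (without NS rat 10) to 0.21 (without MT rat 3) when a rat was left out. The number of members with an exact permutation p below 0.05 was 1 (Hspa8), and 0 with the 75th percentile, normexp and without slide 3, and 0 (without MT rat 1, 2, 4 or 5) to 4 (without MT rat 3) when a rat was left out. Rat 3 was already seen to be the lowest MT rat for those 4 genes, so the last count says nothing about stability. At an unadjusted P below 0.05 in limma the number of members was 0, against 1 with normexp (Hsph1), 1 with slide as a fixed block and without slide 3 (Hmox1), 3 without MT rat 3 and 1 without NS rat 6, 7 or 10 (Hspa8). Of the 3 related lists, 1 gene passed the adjusted threshold. That number was 0 with no filter, with slide as a fixed or random block and without slide 3, and 0 to 1 when a rat was left out. In the same lists 4 genes met the study's criteria, against 1 with the fixed block and 3 to 6 when a rat was left out.

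Over all RNAs, 40 passed the adjusted threshold. The count was 140 with normexp, 66 with the deposited table, 12 with no filter, 120 with the filter on all 10 arrays, 2 without slide 3 and 0 to 84 when a rat was left out (84 without MT rat 2, 21 without MT 3, 3 without MT 4, 6 without MT 5, 18 without NS 7, 2 without NS 8 and 64 without NS 10). It was 0 in limma with slide as a fixed block (824 at an unadjusted P below 0.05) or a random block (1417), and 0 without MT rat 1 (2244) or NS rat 9 (2475). The Student test gave 57. The number past the study's criteria was 552 (350 higher, 202 lower), against 199 with normexp, 909 with no filter (416 higher, 493 lower), 346 with the filter on all 10 arrays, 321 with the fixed block (148 higher, 173 lower) and 326 with the random block (164 higher, 162 lower). The 75th percentile gave 703 higher and 112 lower. Leaving out a rat gave 424 to 864, the highest without NS rat 10. The cause of these shifts was not tested. The fixed block rests on 1 MT and 3 NS arrays of slide 2, so it carries little information on the groups, and the dim arrays of slide 3 limit the values of low RNAs.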
